A study of Mus musculus with 16 samples.

Results

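Leydig cells are the interstitial cells of the testis that make androgen, and 10 mouse genes of that work were followed here: Lhcgr, Insl3, Star, Cyp11a1, Hsd3b1, Hsd3b6, Cyp17a1, Hsd17b3, Srd5a1 and Akr1c14. They were chosen by name for their known role, with earlier results of these data known. All 10 were found by Ensembl identifier among the 55414 genes of each deposited table. The data are total RNA sequencing of whole testes from tamoxifen-treated young mice, 16 libraries in all, taken on postnatal day 14 (P14) or 16 (P16). At P14 there were 3 libraries of the Ythdc2 conditional knockout (cKO), 2 of control and 2 of Cre control testes. At P16 there were 2 control, 4 Cre control and 3 cKO libraries. The labelled treatment for control and cKO mice is tamoxifen at 10 mg/ml on postnatal days 12 and 13, so both stages follow the same 2 treatment days. The alleles behind the names control, Cre control and cKO, and the cells in which the Cre acts, are not given in the sources used here. Whether replicates came from separate animals is not given either, so p-values measure only the spread between these libraries.

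The series is about YTHDC2, an RNA helicase of germ cells, and the comparisons below ask how the androgen-making genes of the neighbouring interstitial cells stood in the same testes. Luteinizing hormone from the pituitary acts on its receptor LHCGR on Leydig cells. STAR then brings cholesterol into the mitochondria, CYP11A1 cuts its side chain to give pregnenolone, and the HSD3B enzymes, CYP17A1 and HSD17B3 carry it on to androgen. Before puberty the Leydig lineage also holds much SRD5A1 and AKR1C14, which reduce testosterone further. INSL3 is the peptide hormone of Leydig cells that guides testis descent. In whole testis, fewer cells of a type and less RNA per cell cannot be told apart.

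Ythdc2 itself was lower in every cKO library. Its normalized value was 502 and 541 in the 2 cKO libraries of the P16 control table against 2609 and 2666 in the controls, and 658 to 753 against 2027 to 2262 at P14. Against Cre control the cKO values were 226 to 446 and 1392 to 2633 at P16, and 323 to 613 and 1352 to 1454 at P14. The libraries came from 2 ribosomal RNA depletion kits. Controls and cKO libraries 1 and 2 of each stage were made with Ribo-Zero components (the first kit here), and all Cre controls and cKO library 3 of each stage with the NEBNext reagents (the second kit). Reads on genes ran from 22220565 to 27531529 per first-kit library and from 14494867 to 23200252 per second-kit library. Of these reads the 10 genes together took 0.0208% to 0.0313% in first-kit libraries and 0.0113% to 0.0246% in second-kit libraries, so each value rests on a small part of a library. The lowest share was that of Cre control library 1 at P14, at 112.5 CPM (reads scaled to the gene reads of the library) against 229 in Cre control library 2 of that stage.

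RPKM values, reads per kilobase of exon scaled by the gene reads of the library, put the 10 genes in order of level. Exon lengths came from GENCODE M21, a mouse annotation on an older assembly than the one named for these counts, so the order is approximate. Hsd3b1, the main hydroxysteroid dehydrogenase and isomerase of the mouse testis, was the highest at a mean of 63.9 ± 10.2 RPKM (SD, n = 8) with the first kit. Hsd3b6, its close relative, followed at 9.53 ± 1.90, Lhcgr at 6.86 ± 1.26, Akr1c14 at 6.19 ± 0.42 and Srd5a1 at 4.36 ± 0.69 RPKM. Hsd17b3 stood at 3.73 ± 1.49, Cyp11a1 at 2.84 ± 0.57, Star at 2.225 ± 0.402 and Cyp17a1, the enzyme that splits the side chain of pregnenolone or progesterone, at 1.08 ± 0.67 RPKM. The second kit gave the same order except that Srd5a1, at 4.47 RPKM, lay above Akr1c14, at 3.82. Hsd3b1 was above Hsd3b6 in 16 of 16 libraries and Star above Cyp17a1 in 16 of 16. The neighbours in the middle did not separate: Lhcgr was above Akr1c14 in 11, Akr1c14 above Srd5a1 in 10, and Srd5a1 above Hsd17b3 in 10 of 16 libraries.

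Hsd3b6 is the relative that marks adult-type mouse Leydig cells, so its share of the pair was taken in each library. Of Hsd3b1 plus Hsd3b6 reads it made up 10.9% to 13.6% in first-kit libraries and 8.86% to 16.9% in second-kit libraries. Other Hsd3b genes were near or at 0: Hsd3b3, Hsd3b4 and Hsd3b5 had 0 reads in all 16 libraries, Hsd3b2 had at most 1 and Hsd3b7 at most 12. In GENCODE M21, 15.7% of the 50-base words of Hsd3b6 also occur in other genes, mostly Hsd3b2, against 4.86% for Hsd3b1. The tables keep reads that map to several places in a separate row, and how many of them belong to this pair was not tested.

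Insl3 was almost unread. It had 9 reads in all 16 libraries together and 0 in 10 of them. A count of 0 allows up to 3 reads, which is 0.109 to 0.207 CPM at these depths, for counting error only. The other 9 genes were read in every library. In GENCODE M21, 64.8% of the Insl3 exon bases are also exon of Jak3 on the same strand, and Jak3 itself had 48 to 97 reads per library. The tables keep ambiguous reads in a separate row, and how many of them lie on Insl3 was not tested. Insl3 passed none of the filters on low values, so the other 9 genes are the ones tested below.

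At P16, 4 of the 9 tested genes were higher in cKO than in control testes: Lhcgr, Hsd3b1, Hsd3b6 and Srd5a1. The rises were 0.29 to 0.53 on the log2 scale, and the other 5 did not pass the test. None of the 9 was called as lower, and 1 of them, Hsd17b3, had a log2 change below 0. The test was limma on log2 of the normalized value plus 1, with Benjamini-Hochberg adjustment over 17986 genes and a threshold of 0.05, with 2 libraries per group. This was a comparison in which much else moved: 38.6% of all genes tested were called, 18.6% of them as higher and 19.9% as lower. The median log2 change of the 9 genes was 0.19, against -0.00 over all genes. Every cKO library was above every control library for 5 of the 9 genes, where 34.2% of all genes showed that order. Deposited values by library are plotted for both stages.

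**Figure D1:**
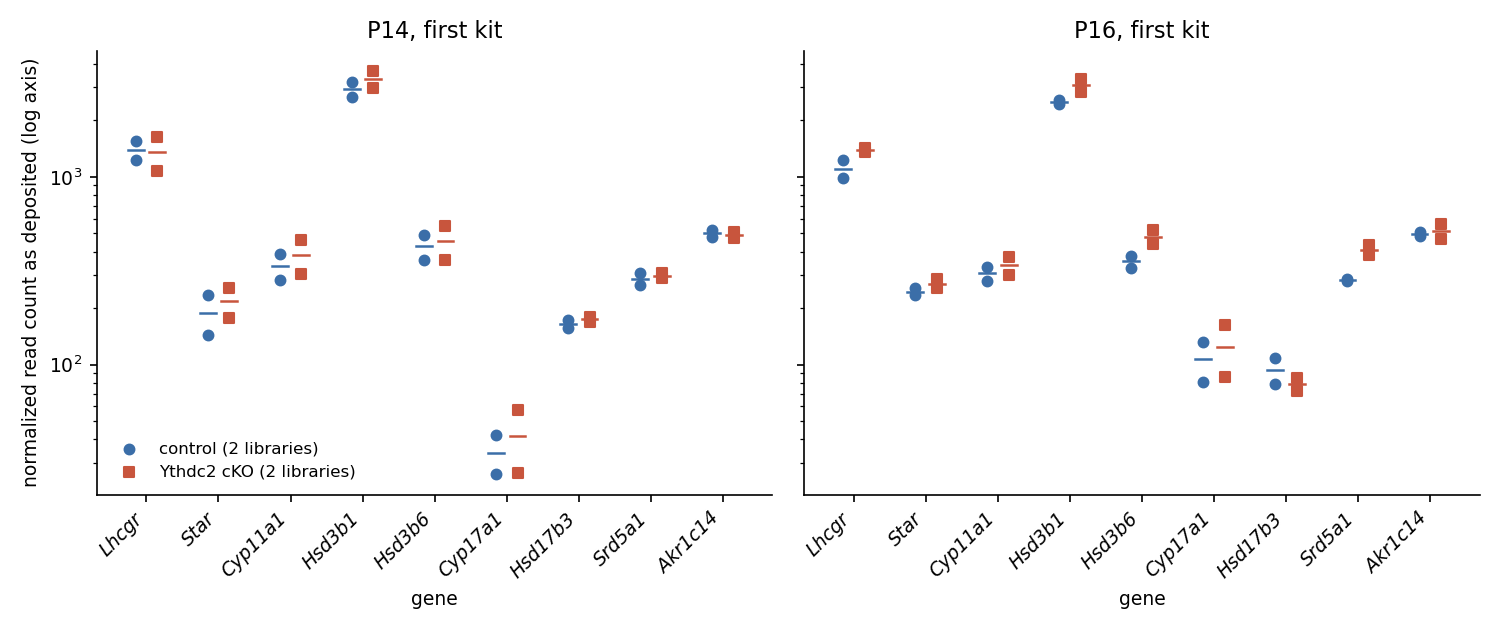
Normalized read counts as deposited (y axis, logarithmic) of the 9 tested genes (x axis) at P14 and P16 in the first-kit libraries of control and cKO testes. Points are libraries and short bars are group means; at P16 the cKO points lie above the control points for Lhcgr, Star, Hsd3b1, Hsd3b6 and Srd5a1, while at P14 the groups overlap for all 9 genes.

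Lhcgr, the receptor through which luteinizing hormone drives the pathway, had P16 values of 984 and 1225 in control and 1427 and 1357 in cKO. Both cKO libraries were above both controls. The log2 change was 0.34 (SE 0.08) with a limma adjusted p of 0.0065. Without control library 1 it was 0.18 and no longer called, with a limma adjusted p of 0.11.

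Cholesterol import and the first enzymatic step did not pass the test. Star had 234 and 254 in control and 284 and 255 in cKO. The cKO values were above the controls, the lower of them by less than 1. The log2 change was 0.14 (SE 0.11). Cyp11a1 had 279.5 and 332 in control and 375 and 301 in cKO, with overlapping groups and a log2 change of 0.14 (SE 0.12). Without cKO library 2 the Cyp11a1 change was 0.30, and without cKO library 1 it was -0.01.

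Both Hsd3b genes, which turn pregnenolone into progesterone, rose. Hsd3b1 had 2569 and 2449 in control and 3314 and 2826 in cKO. The groups did not overlap, and the log2 change was 0.29 (SE 0.07) with a limma adjusted p of 0.0040. Hsd3b6 had 380.3 and 328 in control and 520.1 and 440.2 in cKO. These groups did not overlap either, and the log2 change was 0.44 (SE 0.10) with a limma adjusted p of 0.0049. Without control library 2 the Hsd3b6 change was 0.33, with a limma adjusted p of 0.056.

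The later androgen enzymes Cyp17a1 and Hsd17b3 did not pass the test and their groups overlapped. Cyp17a1 had 81.1 and 132 in control and 162 and 86.0 in cKO, so that each group held 1 low and 1 high library. Its log2 change was 0.19 (SE 0.27). Without cKO library 2 the Cyp17a1 change was 0.64, and without cKO library 1 it was -0.27. Hsd17b3, which makes testosterone from androstenedione, had 79.0 and 109 in control and 84.4 and 72.5 in cKO, with a log2 change of -0.24 (SE 0.19).

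Of the 2 reducing enzymes, Srd5a1 rose and Akr1c14 did not pass the test. Srd5a1, the steroid reductase that turns testosterone into dihydrotestosterone, had 286 and 278 in control and 432 and 382 in cKO. Its lowest cKO value was above its highest control value, and its log2 change of 0.53 (SE 0.09), with a limma adjusted p of 0.0009, was the highest of the 9 genes. Akr1c14, which reduces dihydrotestosterone further, had 509 and 482 in control and 564 and 467 in cKO. These groups overlapped, and the log2 change was 0.05 (SE 0.09). In GENCODE M21, 16.4% of the Srd5a1 exon bases are shared with Gm17108, an overlapping transcript on the same strand.

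The 4 calls depended on the model. edgeR and DESeq2 on the recovered reads called the same 4 genes, where they called 38.8% and 25.8% of all genes. None of the 4 was called by limma without a variance trend, where the lowest adjusted p was 0.0501 and 10% of all genes were called; the log2 changes are the same in that fit. Nor was any called when all 9 libraries of P16 entered limma with a term for the kit and with control and Cre control joined, where the lowest adjusted p was 0.0749 and 14.2% of all genes were called.

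The 4 genes that rose lie on 3 chromosomes, with Hsd3b1 and Hsd3b6 both on chromosome 3. RefSeq promoter sequences on GRCm38.p6 were found for 8 of the 10 genes, with 9 start sites in all since Cyp11a1 has 2. Star and Cyp17a1 had no entry. The 250 bases before the start of each of the 4 are printed because each was called as higher in cKO than in control at P16. Each reads 5' to 3' on the gene's own strand: Lhcgr at chr17:88792015-88792264, Hsd3b1 at chr3:98859795-98860044, Hsd3b6 at chr3:98814444-98814693 and Srd5a1 at chr13:69611464-69611713, all on the minus strand. Capitals mark any match to AGGTCA, the core bound by orphan nuclear receptors such as NR5A1, or to AGATAA, a core bound by GATA factors, on either strand.
Lhcgr: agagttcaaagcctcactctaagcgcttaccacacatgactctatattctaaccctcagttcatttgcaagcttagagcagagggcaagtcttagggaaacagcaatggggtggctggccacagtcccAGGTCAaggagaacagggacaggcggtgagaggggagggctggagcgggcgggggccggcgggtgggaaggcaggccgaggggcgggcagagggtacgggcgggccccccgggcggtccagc
Hsd3b1: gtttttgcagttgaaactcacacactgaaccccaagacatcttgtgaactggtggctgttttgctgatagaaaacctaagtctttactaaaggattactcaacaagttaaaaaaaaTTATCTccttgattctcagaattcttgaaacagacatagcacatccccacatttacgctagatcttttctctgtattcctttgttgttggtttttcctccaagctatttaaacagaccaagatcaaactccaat
Hsd3b6: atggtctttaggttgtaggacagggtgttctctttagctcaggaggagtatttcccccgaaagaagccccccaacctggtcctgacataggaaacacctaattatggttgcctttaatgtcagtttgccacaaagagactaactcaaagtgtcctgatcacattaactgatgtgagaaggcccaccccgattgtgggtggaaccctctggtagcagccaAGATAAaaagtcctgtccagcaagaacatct
Srd5a1: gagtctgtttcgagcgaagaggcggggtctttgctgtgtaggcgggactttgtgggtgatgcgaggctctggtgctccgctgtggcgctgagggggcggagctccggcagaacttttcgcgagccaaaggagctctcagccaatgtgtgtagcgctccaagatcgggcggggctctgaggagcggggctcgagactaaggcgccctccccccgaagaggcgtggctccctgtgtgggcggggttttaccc

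AGGTCA occurred in the Lhcgr sequence 122 bases before the start and in 1 of the 2 Cyp11a1 sequences, so in 2 of the 9 promoters of these genes. Among all 32851 promoters of the same 250-base length, 14% held it. AGATAA occurred on the reverse strand of Hsd3b1, 134 bases before the start, where it reads TTATCT, and on the gene's strand of Hsd3b6, 31 bases before the start. That is again 2 of 9, against 9.99% of all promoters. The Srd5a1 sequence held neither set of letters. The GC content was 63.2% for Lhcgr and 64.8% for Srd5a1 but 36.4% for Hsd3b1 and 47.2% for Hsd3b6. The 4 genes that rose therefore share neither motif in this window.

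At P14, none of the 9 genes was called between cKO and control. By limma only 0.00579% of all genes tested, 1 of 17270, was called at this stage, and that gene was Ythdc2. None of the 9 had an unadjusted p under 0.05, and edgeR and DESeq2 called none of them either. The groups overlapped for all 9 genes, where 15.1% of all genes had every cKO library above every control and 14.5% had every one below. The 9 genes had log2 changes between -0.07 for Lhcgr and 0.23 for Cyp17a1 and a median of 0.08. Lhcgr had 1558 and 1227 in control and 1624 and 1073 in cKO. Hsd3b1 had 3195 and 2654 in control and 3667 and 2959 in cKO. Srd5a1, which led the changes at P16, had 308 and 264 in control and 306 and 288 in cKO. In Lhcgr, Star, Cyp11a1, Hsd3b1, Hsd3b6, Cyp17a1 and Srd5a1 library 1 was above library 2 in both groups. The median of the 9 genes ran from -0.08 to 0.33 as single libraries were left out. The log2 SE was 0.12 for Hsd3b1 and Srd5a1 and 0.20 for Lhcgr at P14, against 0.07, 0.09 and 0.08 at P16. A Lhcgr change of the P16 size thus lies within 2 SE at P14, while Hsd3b1 and Srd5a1 changes of the P16 size lie beyond 2 SE.

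Whether the cKO change differed between the stages was tested with an interaction term over the 8 libraries of the first kit, by limma on log2 CPM. None of the 9 genes was called, against 8.45% of all genes, and 1 had an unadjusted p under 0.05. edgeR and DESeq2 called none of the 9. Srd5a1 had the strongest term, 0.47 (SE 0.15) on the log2 scale with a limma adjusted p of 0.080. Lhcgr had 0.41 (SE 0.26) and Hsd3b6 0.36 (SE 0.28). Without cKO P14 library 1 the Lhcgr term was 0.71, with 1 library left in that group. The calls at P16 and their absence at P14 were therefore not shown to differ.

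**Figure D2:**
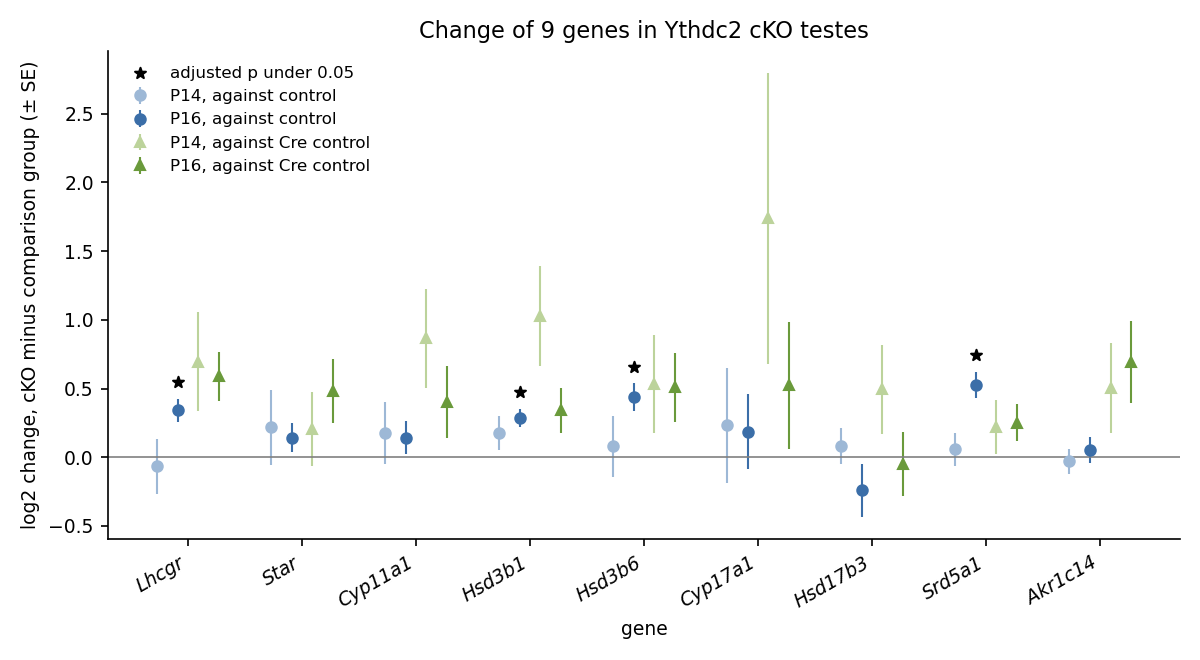
Log2 change (y axis) of the 9 tested genes (x axis) in cKO libraries at P14 and P16 against control (circles) and against Cre control (triangles), with bars of 1 SE; stars mark an adjusted p under 0.05. The stars stand only over Lhcgr, Hsd3b1, Hsd3b6 and Srd5a1 in the comparison with control at P16; the comparisons at a stage share cKO libraries 1 and 2.

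Against Cre control at P16, with 4 Cre control and 3 cKO libraries, none of the 9 genes was called by limma, while 9.07% of all genes were. Of the 9, 8 had a log2 change above 0, the median was 0.48 against -0.04 over all genes, and 2 had an unadjusted p under 0.05. DESeq2 called 1, Lhcgr, where it called 21.8% of all genes, and edgeR called none. Lhcgr had 609, 732, 571 and 751 in Cre control and 1168, 1119 and 754 in cKO. Every cKO value was above every Cre control value, an order that 13.2% of all genes showed and that no other of the 9 did, but cKO library 3 cleared the highest Cre control by less than 4. The log2 change was 0.59 (SE 0.18) with a limma adjusted p of 0.062.

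The kit moves with these values, and the kit goes together with the sequencing run, since the first-kit libraries share 1 run that holds no second-kit library. Kit and run cannot be told apart. cKO libraries 1 and 2 were made with the first kit and all Cre controls with the second, so only cKO library 3 shares the kit of the Cre controls. In that library 1 of the 9 genes, Lhcgr, was above all 4 Cre controls and 8 lay within their range, with a median log2 difference of 0.12. Of all genes, 24% had that library above all 4. Among these Cre controls only library 1 came from the sequencing run of cKO library 3. The others came from a further run, so kit was matched here but run was not. Without cKO library 3, 6 of the 9 were called (Lhcgr, Star, Cyp11a1, Hsd3b1, Hsd3b6 and Akr1c14) where 49.5% of all genes were, and kit and genotype then cannot be told apart. With the kit as a covariate the estimate is again the difference between cKO library 3 and the Cre control mean, so the median was the same 0.12. None of the 9 was called in that fit, and 0.00521% of all genes were. It is not a further check on cKO library 3. That fit has no term for the runs within the second kit. Akr1c14 did not overlap between the libraries of the 2 kits. It had 17.9 to 21.7 CPM in the 8 libraries of the first kit and 7.16 to 16.6 in the 8 of the second, while the other 8 tested genes overlapped between kits. Its log2 change of 0.69 (SE 0.30) against Cre control stood beside 0.05 against control.

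Srd5a1, the gene with the strongest change against control at P16, had 264, 293, 293 and 228 in Cre control and 354, 315 and 291 in cKO. Its log2 change there was 0.25 (SE 0.13), with cKO library 3 inside the Cre control range. Hsd3b1 had 1732, 2147, 1518 and 1769.9 in Cre control and 2714, 2330.1 and 1807 in cKO, and Hsd3b6 221, 335, 290.0 and 172 against 426, 363 and 279. In both Hsd3b genes cKO libraries 1 and 2 were above all Cre controls and cKO library 3 was among them. Hsd17b3 changed sign with the scaling: its log2 change was -0.05 as deposited and 0.24 with quantile scaling. Quantile scaling also moved the median of all genes from -0.04 to 0.10. It called Lhcgr, where 3094 of 19200 genes were called.

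Against Cre control at P14, all 9 genes had a log2 change above 0, with a median of 0.53 against -0.01 over all genes, but none was called, and neither was any other gene (0%). By unadjusted p, 1 of the 9 and 705 of 18196 genes were under 0.05. edgeR and DESeq2 called none of the 9. A single library carried much of this. Hsd3b1 had 809 and 1806 in Cre control and 2969, 2408 and 2106 in cKO. Lhcgr had 429.8 and 861 in Cre control and 1315, 873 and 833 in cKO. Cyp17a1 had 2.30 and 34.5 in Cre control and 46.4, 21.6 and 43.0 in cKO. Cre control library 1 was the lowest for each of these genes. Every cKO library was above both Cre controls for 2 of the 9 genes, Hsd3b1 and Cyp11a1, where 11.7% of all genes showed that order. Without Cre control library 1 the median of the 9 genes was 0.09, and without Cre control library 2 it was 0.98. Without cKO library 3, Hsd3b1 and Akr1c14 were called, at 1.14 and 0.75, where 34.9% of all genes were, and kit and genotype then cannot be told apart. Some markers of other cells also differed between the 2 Cre controls. In percent of their mean, library 1 had 67.6 for the 10 Leydig genes, 123 for peritubular, 89.0 for endothelial, 103.3 for Sertoli, 97.03 for macrophage, 103.01 for spermatogonial and 97.3 for spermatocyte markers, and 115 for adult Leydig markers outside the pathway. The part of these differences in the result was not tested. Within the second kit, cKO library 3 was above both Cre controls for 4 of the 9 genes and within their range for 5, where 26.9% of all genes had it above both.

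From P14 to P16, in control testes, Cyp17a1 rose and Hsd17b3 fell, and the same was called in cKO testes, where Srd5a1 also rose. The stage tests used limma on log2 CPM after TMM scaling, since the deposited tables were scaled separately. They called 20.9% of all genes in control testes, 14.2% higher and 6.71% lower, and 31.5% in cKO testes, 16.3% higher and 15.2% lower. The 2 of 9 genes called in control and the 3 of 9 in cKO are close to these shares.

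Cyp17a1 had 1.74 and 1.08 CPM in control at P14 and 3.12 and 5.09 at P16. The stages did not overlap, and the log2 change was 1.52 (SE 0.42) with a limma adjusted p of 0.031. In cKO it went from 2.36 and 1.13 to 6.20 and 3.30 CPM, a log2 change of 1.48 (SE 0.42) with a limma adjusted p of 0.026. The control call was lost when any 1 of the 4 control libraries was left out, with log2 changes from 1.17 to 1.87. Without a filter on low values, and by limma without a variance trend, the limma adjusted p was 0.0855 and 0.115 in control and 0.0737 and 0.0927 in cKO, so neither call held. The cKO call was lost without cKO P14 library 2, at 0.94, and without cKO P16 library 1, at 1.03. The gene had 24 to 167 reads per library here. In Cre control it went from 0.124 and 1.93 to 2.03, 4.44, 2.71 and 1.67 CPM, where the lower P14 value is 2 reads. That change, 2.13 (SE 0.75), was not called, and the stages overlapped. Without Cre control P14 library 2 the change was 3.85, with only the library with 2 reads left at P14.

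Hsd17b3 went the other way. It had 6.51 and 7.16 CPM in control at P14 and 3.04 and 4.18 at P16, with no overlap, and the log2 change was -0.92 (SE 0.17) with a limma adjusted p of 0.0050. In cKO it went from 6.92 and 7.67 to 3.23 and 2.78 CPM, a change of -1.24 (SE 0.17) with a limma adjusted p of 0.0007. Both calls held whichever single library was left out. In Cre control it went from 3.91 and 8.003 to 3.31, 2.72, 4.14 and 4.53 CPM. These stages overlapped through Cre control P14 library 1, and the change of -0.61 (SE 0.31) was not called. cKO library 3 of the second kit had 8.48 CPM at P14 and 4.14 at P16.

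By the test Srd5a1 rose with stage in cKO and not in control testes, and that difference is the interaction given above, which was not called. It had 12.6 and 12.3 CPM at P14 and 16.5 and 14.7 at P16 in cKO, a log2 change of 0.35 (SE 0.10) with a limma adjusted p of 0.029. It was not called by DESeq2, by limma without a filter or without a variance trend, or without cKO P14 library 2 or cKO P16 library 1. In control it had 12.8 and 11.0 CPM at P14 and 11.0 and 10.7 at P16, with overlapping stages and a change of -0.12 (SE 0.10).

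**Figure D3:**
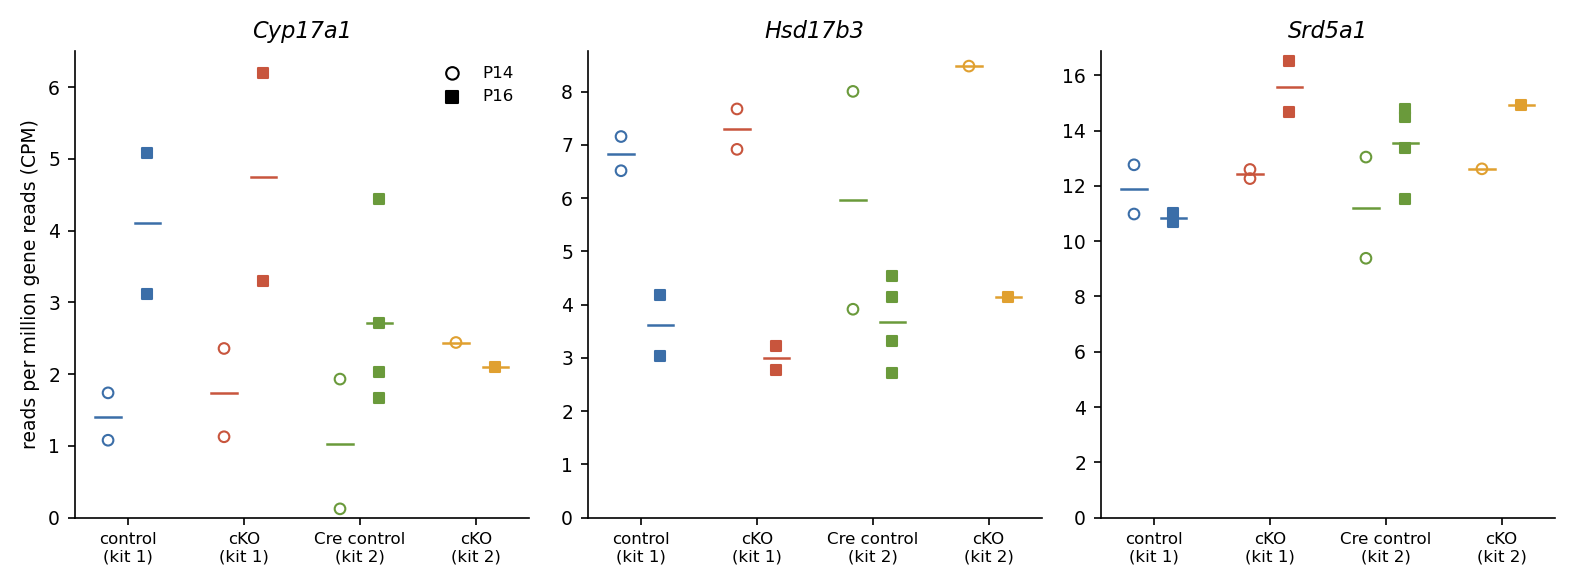
CPM over gene reads (y axis, from 0) of Cyp17a1, Hsd17b3 and Srd5a1 in each library, by genotype and kit (x axis), with open circles for P14, filled squares for P16 and short bars for means. Cyp17a1 rises and Hsd17b3 falls from P14 to P16 without overlap in the first-kit control and cKO libraries, while the single cKO library of the second kit has 2.44 and then 2.10 CPM for Cyp17a1.

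The other 6 tested genes were not called between the stages in control or cKO testes. In control, Lhcgr changed by -0.43 (SE 0.18), Hsd3b1 by -0.32 (SE 0.11) and Hsd3b6 by -0.35 (SE 0.20) on the log2 scale. All 3 were lower at P16 in both control libraries, as CPM, than in either at P14. So were Hsd17b3 and Akr1c14, which makes 5 of the 9 genes, where 33.1% of all genes showed that order. In cKO the stages overlapped for all 3, with changes of -0.02, -0.20 and 0.01. DESeq2 called Hsd3b1 as lower in control, where it called 2607 of 17641 genes. Single libraries moved some changes. Without control P14 library 2 the Hsd3b1 change in control was -0.45. Without cKO P14 library 2 the Hsd3b1 and Cyp11a1 changes in cKO were -0.36 and -0.56. In Cre control, none of the 9 genes was called, against 11.6% of all genes. By unadjusted p 1 of the 9 was under 0.05, and edgeR and DESeq2 called none. The Cre control libraries came from 2 sequencing runs, and within the run that holds both stages none was called, against 5.35% of all genes, and the median change was -0.06. That run holds only 1 Cre control library of P16, and the fit has 1 residual degree of freedom, so it says little. Without Cre control P14 library 2 the Hsd3b1 change in Cre control was 1.03, and without Cre control P14 library 1 it was -0.15.

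Markers of other cells moved with stage as well. In control testes, 6 of 8 macrophage, 4 of 11 Sertoli and 4 of 5 peritubular markers were called as lower at P16 than at P14, and 4 of 8 spermatocyte markers as higher. Their part in the stage results was not tested.

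Other genes of the Leydig lineage were read from lists of known roles in the P16 comparison with control. Of 12 lineage regulators, 7 were called as higher and 1 as lower, with a median log2 change of 0.30. Pdgfra, a growth factor receptor of Leydig progenitors, rose by 0.58 (SE 0.06), and Ptch1, the receptor for Desert hedgehog, by 0.33 (SE 0.07). Gata6, a transcription factor of testis somatic cells, rose by 0.33 (SE 0.06). Nes, a marker of progenitor cells, fell by 0.40 (SE 0.08). In the fit of all P16 libraries with a kit term 1 of the 12 was called, Pdgfra. Against Cre control at P16 none of the 12 was called, 3 had a log2 change above 0 and the median was -0.20. Several of these genes are also known from Sertoli or peritubular cells.

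Of 7 markers of adult Leydig cells outside the pathway, 4 were tested and 1, the prolactin receptor gene Prlr, was called. Only 2 of the 4 had a log2 change above 0, and the median was -0.05. In the fit with a kit term all 4 were above 0, with a median of 0.36. Prlr had 392 and 414 in control and 753 and 620.4 in cKO, a log2 change of 0.76 (SE 0.09), and it kept its call in the fit with a kit term, at a limma adjusted p of 0.0075. Hsd11b1 and Ptgds, enzymes that mark adult Leydig cells, had only 11 to 51 and 4 to 26 reads per library. Of 4 fetal Leydig markers 2 were tested, and Dlk1 rose by 0.25 (SE 0.08), a call lost in the fit with a kit term at a limma adjusted p of 0.061. The median of the 2 was -0.29 against Cre control. Fetal Leydig markers fell with stage: both tested genes were called as lower at P16 than at P14 in control and in cKO.

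The supply of cholesterol did not move as 1 group. Of 13 cholesterol synthesis genes, 3 were called as higher and 6 as lower, with a median of -0.34. Mvd and Cyp51 fell by 0.56 (SE 0.09) and 0.55 (SE 0.07), and Lss fell by 0.38 (SE 0.07). Cyp51 and Lss kept their calls in the fit with a kit term. Of 7 genes of uptake and storage, Soat1, which stores cholesterol as ester, rose by 0.40 (SE 0.05), Scarb1, the receptor for high-density lipoprotein, rose by 0.21 (SE 0.05), and Srebf2, the master regulator of cholesterol synthesis, fell by 0.39 (SE 0.06). Of the 4 electron donors, Fdxr and Cyb5a rose by 0.36 (SE 0.06) and 0.21 (SE 0.06) and Por fell by 0.34 (SE 0.06). In the fit with a kit term Soat1 and Por kept their calls, and Mvd, Scarb1, Srebf2, Fdxr and Cyb5a did not. These genes are read in many cell types of the testis.

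Of 24 other steroid enzymes and relatives, 10 were tested: Akr1c13 and Hsd17b11 were called as higher and Hsd17b12 as lower. Akr1c13, a relative of Akr1c14, changed by 0.73 (SE 0.21) from 70.7 and 50.1 in control to 115 and 86.0 in cKO. Among the targets of the hormones in other cells, Eppin, an androgen-dependent gene of the Sertoli cell, fell by 0.68 (SE 0.10). None of these 4 calls held in the fit with a kit term. Rxfp2, the receptor for INSL3, and Rhox5, Tubb3 and Cldn3 did not pass the test.

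Markers of other cells moved with the same comparison. Of 11 Sertoli markers 8 were called as higher and of 8 macrophage markers 7, among them Kitl by 0.49 (SE 0.06) and Adgre1 by 0.76 (SE 0.11). Of 5 endothelial markers 2 were higher and of 5 peritubular markers 1. Of 6 spermatogonial markers 5 were lower, with Stra8 at -1.10 (SE 0.06), and of 8 spermatocyte markers 4 were lower and 1, Pgk2, higher. In percent of the control mean, the summed values in the 2 cKO libraries were 113 and 130.3 for the 10 Leydig genes, 118 and 131 for Sertoli, 135 and 138 for macrophage, 73.7 and 75.7 for spermatogonial and 81.3 and 89.3 for spermatocyte markers. In the fit with a kit term 3 Sertoli, 4 macrophage and 3 spermatocyte markers were called in the same directions and 0 spermatogonial ones. No marker of these lists was at 0 in any library of the table. Against Cre control at P16 the median log2 change was 0.48 for the 9 tested Leydig genes and -0.03 for the 11 Sertoli markers, and in the fit with a kit term it was 0.12 and 0.26. The part that a changed mix of cells had in the rise of the Leydig genes was not tested. Adrenal cortex markers were near 0: Cyp11b1 and Cyp11b2 had at most 1 read and Cyp21a1 and Mc2r at most 6 in any library.

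At P14 none of these lists had a gene called against control. The macrophage sum was 3665 to 4432 in cKO and 4271 to 4365 in control, and the Sertoli sum 106195 to 113331 against 108572 to 108956. The sums of the 10 Leydig genes overlapped as well, at 5840.2 to 7602 in cKO and 5652 to 6855 in control.

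**Figure D4:**
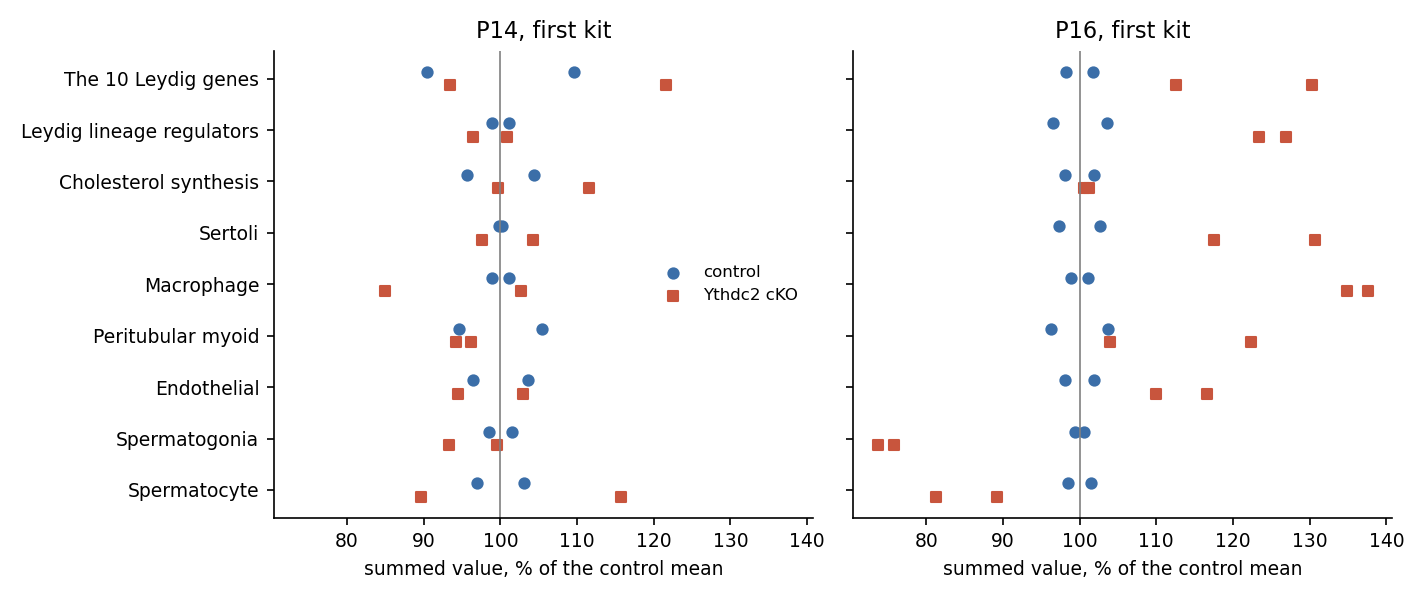
Summed normalized values of gene lists (y axis) in each control and cKO library of the first kit at P14 and P16, in percent of the control mean of the stage (x axis, which does not start at 0); each point is 1 library. At P16 the cKO points of the 10 Leydig genes (113 and 130.3%), the Sertoli and the macrophage markers lie to the right of the controls and those of the germ cell markers to the left, while at P14 those of the 10 Leydig genes are mixed.

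The 9 tested genes varied together across libraries to unequal degrees. After centring log2 CPM within each kit, Lhcgr followed the mean of the other 8 most closely, with Pearson r of 0.88 over the 16 libraries, then Hsd3b1 with 0.86, Cyp11a1 with 0.79 and Hsd3b6 with 0.76. Star had 0.53, Srd5a1 0.44, Cyp17a1 0.43, Akr1c14 0.26 and Hsd17b3 0.24. Among pairs, Lhcgr and Hsd3b1 stood highest at 0.83, and Cyp17a1 and Hsd17b3 lowest at -0.34. These last 2 genes moved in opposite directions with stage. Within the first and the second kit, Lhcgr and Hsd3b1 had 0.79 and 0.86, but Cyp17a1 and Hsd17b3 had -0.79 and -0.03. Hsd3b1 and Cyp17a1 had -0.27 and 0.88. Cre control library 1 at P14, with 2 Cyp17a1 reads, is among the second-kit libraries, and its part in these values was not tested. The libraries share stage, genotype, run and depth, so these coefficients are descriptions.

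**Figure D5:**
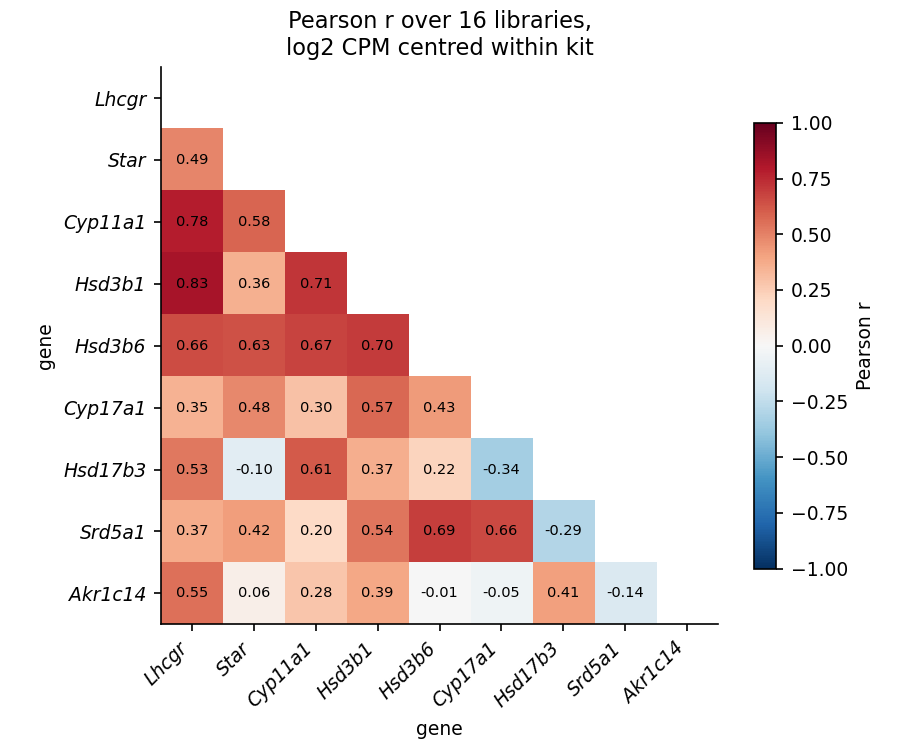
Pearson r (colour and printed value) between each pair of the 9 tested genes (both axes) over 16 libraries, from log2 CPM centred within kit. Lhcgr, Cyp11a1, Hsd3b1 and Hsd3b6 form a block with r from 0.66 to 0.83, and Hsd17b3 has negative r with Star, Cyp17a1 and Srd5a1. Some pairs differ between the kits, as Hsd3b1 and Cyp17a1 with -0.27 in the first and 0.88 in the second.

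Among 19821 genes, those whose pattern was most like the mean of the 9 over the 16 libraries were Mat2a with Pearson r of 0.96, Clec12b with 0.95, Ccdc160 and Rasl12 with 0.93, Plod2 and Cdon with 0.92, and Fam198b, Angpt2, Gpd1 and Ahsg with 0.91. With so many genes ranked over so few libraries, values of this size are descriptions of these libraries only.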

How the data were processed

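Total RNA of whole mouse testis was sequenced after ribosomal RNA depletion. Per the submitters' processing notes, reads were handled with Trim Galore, STAR, HTSeq and DESeq2 against GRCm39 (mm39); versions, annotation release and strand setting are not given in the sources used here. The authors deposited 4 tables of normalized signal, reads divided by a size factor within each table. Dividing by the value of 1 read gave whole reads for 100% of values in all 20 columns (tolerance 0.01). The cKO libraries 1 and 2 of each stage stand in 2 tables with identical reads. Of 55414 gene rows, 52081 had a name in the annotation used here, and 4 summary rows were left out.

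Genotypes were compared within a table by limma (lmFit, eBayes with trend; R 4.3.3, limma 3.58.1) on log2(value + 1), keeping genes that reached 10 in 2 or more libraries. Stages were compared on log2 CPM of the recovered reads (TMM, prior count 1, CPM of 0.5 or more in 2 or more libraries). p-values were adjusted by Benjamini-Hochberg over all genes tested, and a gene was called under 0.05. Fold changes are on the log2(value + 1) or log2 CPM scale and understate changes of low genes. Alternatives were pseudocounts of 0.1 and 10, other filters and scalings, eBayes without trend, edgeR 4.0.16 and DESeq2 1.42.0 on recovered reads, kit as a covariate, replicate blocks and leaving out each library. Leaving out a library from a group of 2 assumes that the lone library varies like the others. The fits were tested on simulated data.

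The 10 genes and the lists were chosen with earlier results of these data known. Besides these genes and Ythdc2, the text names from each list the up to 4 called genes with the largest change at P16 against control, relatives that share reads, and the 10 genes most like the mean; genes named for being near 0, and the untested or uncalled rest of a short list, were added after their values were seen. Some genes that met this rule are not reported here. Exon lengths and overlaps come from GENCODE M21 and promoters from RefSeq on GRCm38.p6. No coordinates were moved between builds. RPKM used the reads on genes as the total.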

Additional observations from a re-analysis of the deposited data

How the results depend on the processing

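With 2 to 4 libraries per group, the number of the 9 genes called moved easily. Against control at P16 it was 4; 0 were called by eBayes without trend and 0 with both kits and control types and the kit as covariate, and leaving out 1 library gave 3 to 6. Against Cre control at P14 it was 0, with 0 to 2 when 1 library was left out. Against Cre control at P16 it was 0, with 1 by quantile scaling, 1 by DESeq2 and 0 to 6 when 1 library was left out. For the interaction it was 0, with 0 to 1 when 1 library was left out. For control P16 against P14 it was 2, with 1 without a filter, 1 by eBayes without trend and 1 to 2 when 1 library was left out. For cKO P16 against P14 it was 3, with 1 without a filter, 1 by eBayes without trend and 1 to 3 when 1 library was left out. For Cre control P16 against P14 it was 0, with 0 to 2 when 1 library was left out. The restriction to libraries of 1 run was chosen after seeing the data. The share of all genes called moved with these settings too. Against control at P16 it was 38.6% in the main fit, 10% by eBayes without trend and 14.2% with the kit as covariate. Against Cre control at P16 it was 9.07%, with 3094 of 19200 genes by quantile scaling, 21.8% by DESeq2 and 49.5% without cKO library 3. Against Cre control at P14 it was 0%, and 34.9% without cKO library 3. For control P16 against P14 the share was 20.9%, with 2743 of 33819 genes without a filter and 2311 of 17641 by eBayes without trend. For cKO P16 against P14 it was 31.5%, with 4701 of 33819 and 4288 of 17641. Main shares were 8.45% for the interaction and 11.6% for Cre control P16 against P14. Counts from fits that leave 1 library in a group are not read as results about these genes. Leaving out libraries changes their number, and for the other settings the cause was not tested.

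Deviations from the group mean in libraries with the same replicate number had r of 0.08 at P16 and 0.20 at P14 against control. Against Cre control r was -0.23 to 0.30. With 2 libraries per group the deviations mirror each other, so each comparison with control gives only 1 r. Most pairs with Cre control differ in kit. These values therefore cannot tell whether such libraries share more than a number. With the replicate number as a block, 4 genes were called against Cre control at P14, where 38.7% of all genes were. That block also drops cKO library 3, which has no partner, so that kit equals genotype; dropping it alone gave 2. With the block, 1 was called for the interaction (Srd5a1; 13.3% of all genes), 4 for control P16 against P14 (25.6%) and 2 for Cre control P16 against P14 (9.44%); for the other 4 comparisons the block left the count within 1.5 times.

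For single genes, 1051 values were recomputed: 925 kept their sign and side of the threshold, 25 lost a call, 29 gained one, and 72 changed sign without a call in either fit. None changed sign with a call. Insl3 entered only fits without a filter, and a minimum value of 50 left Cyp17a1 untested at P14. Low read counts limit what can be said of Insl3 and, at P14, of Cyp17a1, whose change there rests on 2 to 59 reads per library. The part of depth in these low counts was not tested.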
